A study of Homo sapiens with 2 samples.

Results

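The genes described are the 10 that lie around CCND1 in band 11q13 of chromosome 11: CCND1, ORAOV1, FGF19, FGF4, FGF3, TMEM16A, FADD, PPFIA1, CTTN and SHANK2. They were taken by the gene name the array gives, and all of their probes were kept, which made 21 probes among 40814 and 10 genes among 30396 names. ORAOV1 is now called LTO1 and TMEM16A is now called ANO1. Of the 21 probes, 16 stood well above background on each array and 5 on neither, so that 8 of the 10 genes could be compared.

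SAS is an established line of squamous-cell carcinoma cells from a human tongue tumor, grown in DMEM with fetal bovine serum. eSAS is the population obtained from SAS by 5 rounds of catching large spheroids, the globular aggregates that cells form in non-adherent culture, on the detachable filter of the Spheroid Catch device. The methods describe a step in which single cells were picked to set up a line, and whether the eSAS cells on the array came from 1 clone is not stated for the array. Total RNA was taken from each during logarithmic growth and hybridised to 1 one-color array per population, so that there is no replicate of either group and no test between SAS and eSAS was possible.

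Band 11q13 is often amplified in squamous carcinoma of the head and neck, and CCND1, which encodes cyclin D1, is the gene for which the region is best known. Cyclin D1 joins CDK4 and CDK6 to phosphorylate the retinoblastoma protein and so frees E2F factors to drive entry into S phase. The neighbouring genes have unrelated roles: growth factors (FGF19, FGF4 and FGF3), a chloride channel (TMEM16A), a death receptor adaptor (FADD), an actin regulator (CTTN) and scaffold proteins (PPFIA1 and SHANK2). The arrays measured RNA, and DNA copy number was not measured.

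Across each array, 69.4% of spots on SAS and 67.5% on eSAS were well above background, no spot was saturated, and the 75th percentile of the processed signal, to which each array was scaled, was 1242 and 1196. All 8 squamous epithelium markers (KRT5, KRT6A, KRT14, KRT17, TP63, DSG3, SFN and CDH1) were well above background on both arrays, with 9 of their 10 probes at least 20% lower in eSAS, beside 13.7% of all probes, and a summed signal of 67327 in SAS and 38395 in eSAS. The 2 KRT14 probes were unlike in size, with log2 ratios of -6.58 and -1.23. The fibroblast markers had 1 of 6 genes above background on either array (COL1A1 in SAS and LUM in eSAS), with sums of 63.6 and 69.5. The leukocyte markers PTPRC and CD3E were not well above background, whereas CD14 and CD79A were, with sums of 2697 and 2659 for the 4 genes. Of the endothelial markers VWF was detected on both arrays (86.0 in SAS and 77.1 in eSAS at 1 probe), CDH5 in SAS (17.0) and PECAM1 on neither, with sums over the 3 genes of 113 and 98.2. The part of these marker levels in the 11q13 values was not tested.

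Promoters were available for 5 of the 10 genes, and 3 are shown: those of ORAOV1 and TMEM16A, whose measured probes were all lower in eSAS, and that of FGF3, the growth factor of the region with a signal above background. Each is the 250 bases before the start of the gene, 5′ to 3′, from RefSeq on GRCh38.p14. They lie at chr11:69675354-69675603 on the minus strand (ORAOV1), chr11:69819417-69819666 on the minus strand (FGF3) and chr11:69985657-69985906 on the plus strand (TMEM16A). Capitals mark the GC box (GGGCGG or its complement CCGCCC) and the CCAAT box (CCAAT or ATTGG).
ORAOV1: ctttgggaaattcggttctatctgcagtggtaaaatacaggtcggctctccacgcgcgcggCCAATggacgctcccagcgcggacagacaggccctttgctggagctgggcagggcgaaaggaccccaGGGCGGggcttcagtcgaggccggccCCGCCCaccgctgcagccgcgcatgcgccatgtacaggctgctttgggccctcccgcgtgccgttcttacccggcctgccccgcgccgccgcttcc
FGF3: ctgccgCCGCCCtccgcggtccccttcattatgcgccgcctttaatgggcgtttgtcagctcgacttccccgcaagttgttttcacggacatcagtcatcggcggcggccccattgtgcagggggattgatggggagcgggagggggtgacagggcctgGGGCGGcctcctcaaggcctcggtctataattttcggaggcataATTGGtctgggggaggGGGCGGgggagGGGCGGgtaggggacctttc
TMEM16A: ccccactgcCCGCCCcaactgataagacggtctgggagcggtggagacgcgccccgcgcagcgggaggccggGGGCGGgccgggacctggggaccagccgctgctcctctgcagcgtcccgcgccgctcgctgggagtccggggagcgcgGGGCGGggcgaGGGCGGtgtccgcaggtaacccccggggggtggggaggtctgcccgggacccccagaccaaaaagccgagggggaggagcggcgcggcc
The letters of the GC box were found 2 times before ORAOV1, 4 times before FGF3 and 4 times before TMEM16A, and 42.6% of 35116 RefSeq promoters of this length hold them on either strand. A CCAAT box stood once before ORAOV1 and once before FGF3 but not before TMEM16A, against 32.0% of all promoters. Neither the TATA box (TATAAA, in 10.72% of promoters) nor the E box (CACGTG, in 6.34%) occurred in any of the 3, and no bases were shared between motifs. The GC content was 68.4% for ORAOV1, 64.4% for FGF3 and 78% for TMEM16A, beside a median of 58% over all promoters. These matches are letters in a window and say nothing of which factors bind there.

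Over the 16 measured probes, most of the 11q13 genes differed little between SAS and eSAS. The median log2 ratio of eSAS over SAS was -0.01, beside -0.0039 over the 26659 probes detected well above background on each array, and 10 of the 16 probes lay within 0.2 of zero on this log2 scale. No probe of the 10 genes was at least 2-fold higher in eSAS, where 1.83% of all 28439 probes tested were. At least 2-fold lower was 1 probe (SHANK2), or 6.25% of the 16, beside 1.97% of all probes. At a smaller limit, which is 25% higher or 20% lower and lies at 0.32 on the log2 scale in either direction, 1 probe was higher (CCND1), or 6.25%, beside 10.1% of all probes. In the other direction 3 probes were past it, 1 of SHANK2 and 2 of TMEM16A, or 18.75% beside 13.7%. With 16 probes, 1 probe moves these shares by 6.25 percentage points, and none of them is read as a property of the genes as a group. The probe nearest to this limit but short of it was one of ORAOV1 at -0.32, and the CCND1 probe just past it had 0.33.

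**Figure D1:**
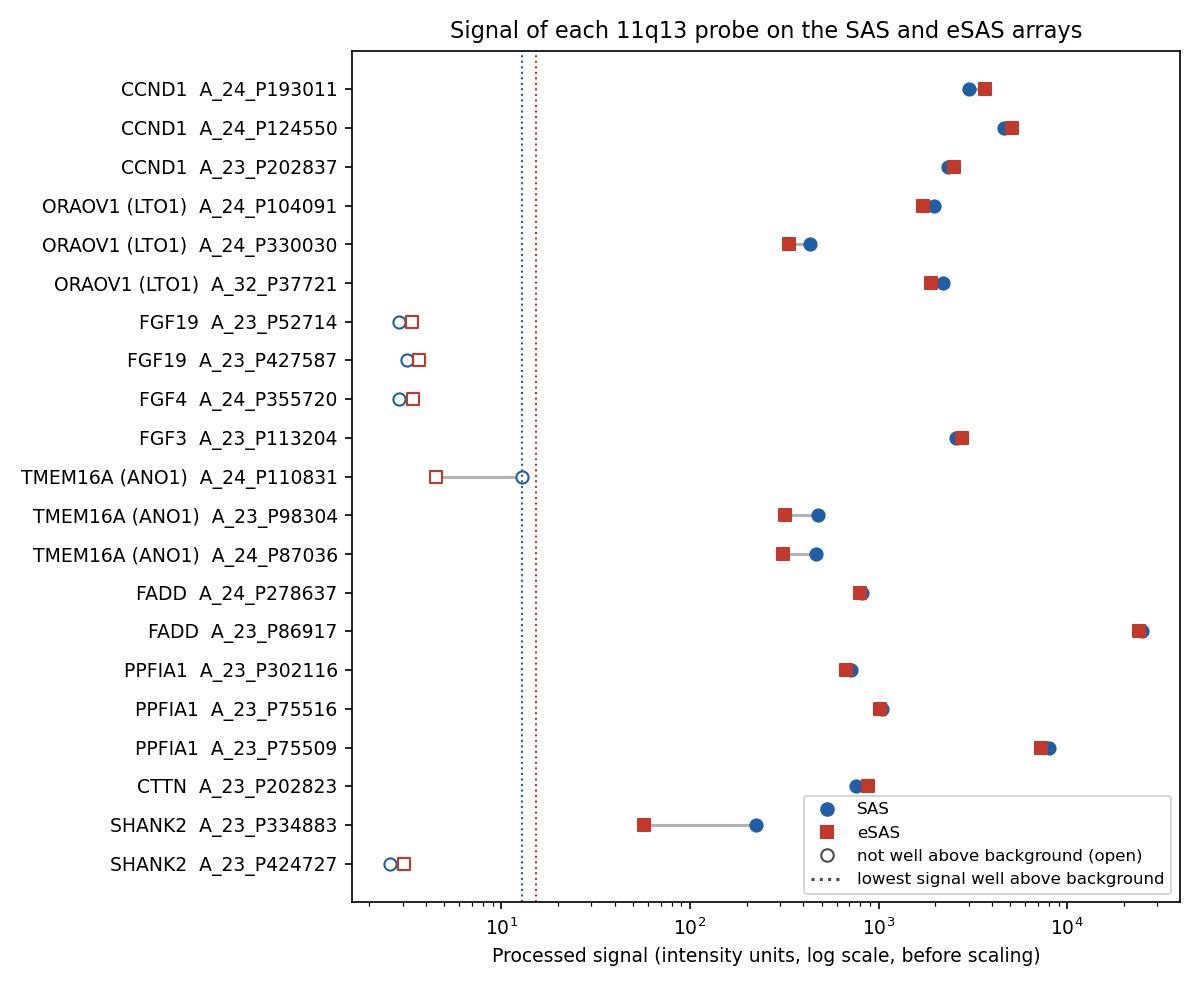
Processed signal of all 21 probes of the 10 genes on the SAS array (circles) and the eSAS array (squares), on a log axis and before scaling, in order along the chromosome. Open symbols are probes not well above background, and dotted lines mark the lowest signal well above background on each array (12.8 for SAS and 15.2 for eSAS); the 5 open pairs belong to FGF19, FGF4, TMEM16A and SHANK2.

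CCND1 was slightly higher in eSAS at each of its 3 probes. All 3 read the same transcript from its plus strand, at chr11:69167820-69167879, chr11:69176451-69176510 and chr11:69177414-69177473 in the hg18 coordinates of the array. The first of them (A_24_P193011) had a processed signal of 3031 in SAS and 3657 in eSAS, a log2 ratio of 0.33 after scaling, or 125% of the SAS level. The second (A_24_P124550) had 4624 in SAS and 5099 in eSAS, a log2 ratio of 0.20. The third (A_23_P202837) was printed at 10 positions of each array, which allows the error of the measurement within an array to be seen.

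The 10 spots of this CCND1 probe read 2336 ± 71.7 in SAS (SD, n = 10 spots), with a lowest of 2247, a median of 2326 and a highest of 2467. In eSAS they read 2502 ± 91.1 (SD, n = 10 spots), with a lowest of 2393, a median of 2521 and a highest of 2664. The ranges of the arrays overlapped, yet at 9 of 10 positions the eSAS spot was brighter, and after scaling all 10 ratios were above zero. Their log2 ratios ran from 0.039 to 0.19 with a mean of 0.15 ± 0.045 (SD over spots). Spots share the RNA, the labelling and the array, so this spread is technical and does not stand for the spread between cultures.

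**Figure D2:**
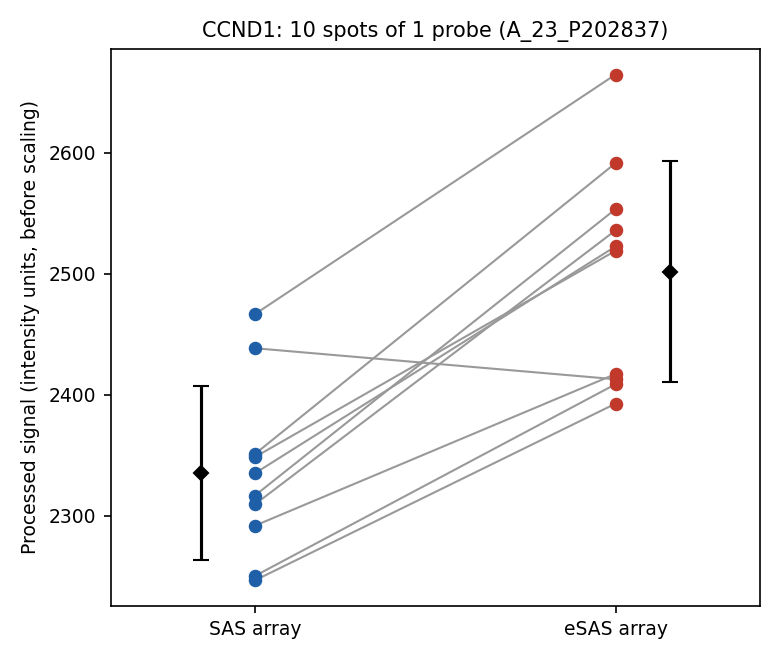
Processed signal, before scaling, of the 10 spots of CCND1 probe A_23_P202837 on the SAS and eSAS arrays, with a line joining the spots at the same position and diamonds with bars for the mean and SD over spots. In 9 of 10 positions the eSAS spot is brighter, although the ranges overlap (2247 to 2467 in SAS and 2393 to 2664 in eSAS); the axis does not start at zero.

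The mean log2 ratio over the CCND1 probes was 0.22, or 1.17-fold. In RNA of whole cultures, more cells that express a gene and more RNA per cell cannot be told apart, here and in each result that follows. The probe with the largest value lies in row 479 of the array, within rows 450 to 510, which hold 196 of the 267 spots that the scanner software marked as uneven or outlying on SAS and 10 of 86 on eSAS. It was not itself marked. Without those rows no probe of the 10 genes was 25% higher, and 2 of the 10 spots of A_23_P202837 also lie there, without which its mean was 0.15. The 3 values were below zero, down to -0.22, under the normexp background model, which moved the median of all probes to 0.53.

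Among the listed genes that work with or beside cyclin D1, CCND2, another D-type cyclin, was lower in eSAS. CDKN2B, 1 of the INK4 inhibitors of CDK4 and CDK6, was higher. Of 17 genes with 28 probes, all well above background on both arrays, 4 probes were at least 25% higher in eSAS and 6 at least 20% lower, beside 10.1% and 13.7% of all probes, none 2-fold, with a median log2 ratio of 0.03. CCND2 was lower at each of its 3 probes: the signals were 6964, 2359 and 12757 in SAS against 3765, 1201 and 7013 in eSAS, log2 ratios of -0.83, -0.92 and -0.81. CDKN2B, which encodes the CDK4 and CDK6 inhibitor p15, was higher at both of its probes, with 317 and 28.2 in SAS against 525 and 43.0 in eSAS, log2 ratios of 0.78 and 0.66. The remaining probes past these limits were those of CDKN1A, which encodes p21 (0.51 and 0.57), RB1, the retinoblastoma protein itself (-0.46 and -0.41), and CDKN1C, which encodes p57 (-0.66). The other INK4 inhibitors, CDKN2A (mean 0.15), CDKN2C (-0.04) and CDKN2D (0.21), and CDKN1B, which encodes p27 (mean -0.0040), did not pass them. The kinases CDK4 (0.16) and CDK6 (0.05 and 0.15) stayed within them.

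ORAOV1, a gene with a part in ribosome biogenesis that lies next to CCND1, was lower in eSAS at all 3 of its probes. At A_24_P104091 the signal was 1957 in SAS and 1724 in eSAS, a log2 ratio of -0.13. At A_32_P37721 it was 2190 and 1904, a log2 ratio of -0.15. The dimmest of the 3, A_24_P330030, had 433 in SAS and 334 in eSAS, a log2 ratio of -0.32, and it lies in row 493, within the rows named above. Under the normexp model this probe turned to 0.73, with 0.53 for all probes, while the other ORAOV1 probes stayed below zero. The gene mean was -0.20, with a sign opposite to that of CCND1 although the genes adjoin. The SD of replicate spots of like brightness was 0.068 at that probe and 0.043 at the brighter ones.

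FGF19, FGF4 and FGF3 are secreted fibroblast growth factors, of which FGF19 acts as a hormone through FGFR4 and the co-receptor beta-Klotho, while FGF3 and FGF4 act locally in the embryo. FGF19 was not well above background at either probe, with signals of 2.87 and 3.15 in SAS and 3.37 and 3.64 in eSAS. FGF4 was not either, with 2.87 in SAS and 3.40 in eSAS. No ratio is given for these, and a level under the background of an array is a limit of its sensitivity and not an absence of RNA. FGF3 gave a clear signal at its only probe (A_23_P113204), with 2586 in SAS and 2765 in eSAS, a log2 ratio of 0.15, which turned to -0.21 under the normexp model. A single probe gives no check of its own from a second position in the transcript.

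Of the receptors for these factors, FGFR1, FGFR2 and FGFR3 were lower in eSAS at each probe with a ratio, while FGFR4 and FGFRL1 were not. The list holds 19 probes for 8 genes, among them FGFBP1 (0.0080), which is no receptor. Of these, 12 probes were detected in SAS, eSAS or both, and 1 FGFR1 probe among them has no ratio. At least 20% lower were 7 of the 12 (13.7% of all probes were), 1 was at least 25% higher and none reached 2-fold. All 7 belong to FGFR1, FGFR2 and FGFR3, and probes of the same gene are not independent. The median log2 ratio was -0.50 over the 10 probes measured on both arrays. By gene, 3 means were above zero and 3 below, with a median of -0.25. FGFR2 had 3 probes at 3029, 431 and 84.9 in SAS against 1790, 258 and 53.2 in eSAS, log2 ratios of -0.70, -0.69 and -0.62. FGFR3 had one at -0.65, and FGFR1 had values of -0.59 and -0.41 and another probe at least 1.51-fold lower, not well above background in eSAS. FGFRL1, a receptor without a kinase domain, was higher at both probes (0.43 and 0.16), and FGFR4 was equal on both arrays to within 0.01 on the log2 scale (57.6 and 55.5 before scaling). KL and KLB, the Klotho co-receptors, were not well above background at any probe.

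TMEM16A, the calcium-activated chloride channel of secretory epithelia and smooth muscle, was lower in eSAS at both of its measured probes. A_23_P98304, at chr11:69712579-69712638 (hg18), read 479 in SAS and 320 in eSAS. A_24_P87036, at chr11:69712881-69712940 and so close to the first, read 468 in SAS and 313 in eSAS. The log2 ratios were both -0.53, or 1.44-fold lower, beside an SD of 0.068 for replicate spots of like brightness, and 7.22% of all probes were as low or lower. Over 3960 genes with 2 probes measured on both arrays, the ratios of a pair differed by a median of 0.11, and these probes lay closer together than that. They lie within the same stretch of transcript and are not independent.

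The third TMEM16A probe (A_24_P110831), which the array ties to another transcript record, was not well above background, with 12.9 in SAS and 4.50 in eSAS. The 8 spots adjacent to A_24_P87036 had a median log2 ratio of 0.24, the largest such value of any probe of the 10 genes, and opposite in sign to the probe. Under the normexp model the TMEM16A values turned to 0.38 and 0.44, which is below the 0.53 that this model gave for the median of all probes. Of the other anoctamins, 9 genes with 6 probes measured had 1 probe at least 25% higher and none 20% lower, beside 10.1% and 13.7% of all probes, with a median of 0.10. ANO2, a chloride channel of sensory neurons, had 856 in SAS and 1371 in eSAS (0.73), and ANO6, a lipid scramblase, had log2 ratios of -0.31 and -0.28.

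FADD, the adaptor that links death receptors to caspase-8, was the same on both arrays within the error of the spots. Its probe A_23_P86917 read 24977 in SAS and 24154 in eSAS, a log2 ratio of 0.0060 with an SD of 0.042 for replicate spots of like brightness. A_24_P278637 read 813 and 802, a log2 ratio of 0.036. Both signs turned without scaling (-0.048 and -0.019), and under the normexp model the values were -0.59 and 0.22. Around it, 18 probes for 11 death receptor genes were measured, with 4 at least 25% higher in eSAS and none 20% lower, beside 10.1% and 13.7% of all probes, and a median of 0.08. These were the death receptors TNFRSF10A (0.37) and FAS (0.34), the caspase-8 inhibitor CFLAR (0.37, with 0.25 at its other probe) and 1 probe of CASP8. That probe read 413 in SAS and 655 in eSAS (0.72), but the other CASP8 probes gave -0.01 and -0.0053, so that the gene as a whole was not uniform. The ligand TNFSF10 had -0.25, and FASLG was not well above background.

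CTTN encodes cortactin, which binds and steadies branched actin at invasive protrusions. Its only probe (A_23_P202823) read 757 in SAS and 878 in eSAS, a log2 ratio of 0.27 or 1.20-fold, more than the 0.047 SD of like replicate spots but short of the 25% limit. It was above zero under all 13 settings tried, from 0.21 to 0.36, but not all of them could move it. The probe is bright, unmarked and outside the uneven rows. The filters and limits for dim probes, keeping marked spots and leaving out those rows therefore left it at 0.27. So did the series table, which held the same signals. The 15 genes of branched actin assembly had a median of -0.01 over 20 probes, with 2 at least 25% higher and 1 at least 20% lower, beside the same 10.1% and 13.7%. HCLS1, the cortactin relative of blood cells, was 2.45-fold higher at a low signal (32.5 in SAS and 76.5 in eSAS), and the other probes past these limits were WIPF1, a partner of WASP proteins (0.50), and SRC, the kinase that phosphorylates cortactin (-0.54). The subunits of the Arp2/3 complex, which nucleates actin branches, stayed within them.

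PPFIA1 encodes liprin-alpha-1, a scaffold at focal adhesions, and differed little between the arrays. Its probes read 714, 1041 and 8033 in SAS and 672, 1017 and 7312 in eSAS, and their log2 ratios were -0.03, 0.02 and -0.08, of which the first turned to 0.30 under the normexp model. The mean was -0.03. The first and second probes lay within the SD of like replicate spots, 0.05 and 0.045, which does not measure the error of the mean. The brightest probe, at -0.08, lay farther from zero than the 0.040 SD of spots like it.

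SHANK2 encodes a scaffold of the postsynaptic density that is also present in epithelia, and it had the largest difference of the 10 genes. Its probe A_23_P334883, at chr11:69992011-69992070 on the minus strand (hg18), read 224 in SAS and 57.4 in eSAS, both well above background. The log2 ratio was -1.91, or 3.76-fold lower in eSAS, beside an SD of 0.12 for replicate spots of like brightness over 47 probes. Only 0.408% of all tested probes were as low or lower. The spots around it did not share the difference, with a median of -0.04 over the 8 adjacent spots, and the spot was not marked on either array. Before any background correction its mean pixel intensity was 313 in SAS and 117 in eSAS, and its median 313 and 115.

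The second SHANK2 probe (A_23_P424727, chr11:70013391-70013450), tied by the array to another transcript of the gene, was not well above background, with 2.57 in SAS and 3.04 in eSAS. The SHANK2 difference thus rests on 1 spot of each array. Without background correction the log2 ratio was -1.37, and under the normexp model it turned to 1.0. When spots with a marked local background were kept out of that fit, a choice made after the data had been seen, it was -1.28. Its relative SHANK3 had -0.28, and SHANK1 was not well above background. Of 16 tested probes for the liprin and SHANK partners, 2 were at least 20% lower (PPFIBP2, a liprin-beta, at -0.58, and PPFIA3 at -0.37) and none 25% higher, beside 13.7% and 10.1% of all probes. Their median was -0.19 over the 15 probes measured on both arrays. HOMER2, which binds SHANK proteins, had 0.06.

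**Figure D3:**
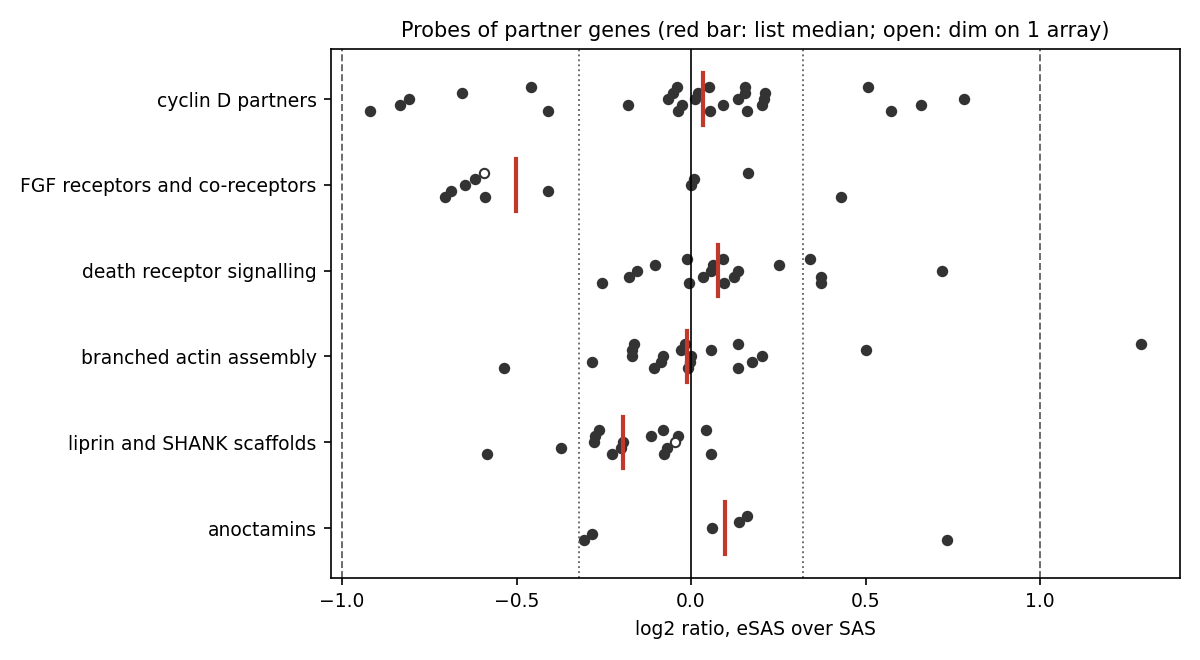
The log2 ratio of eSAS over SAS for the probes of 6 lists of partner genes, 1 point per probe (open: dim on 1 array, drawn at the bound), with a red bar at each list's median over probes measured on both arrays; dotted lines mark 25% higher and 20% lower, dashed lines 2-fold, and points are spread vertically for legibility. The FGF receptors have the lowest median (-0.50), and HCLS1 is the point beyond 2-fold.

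**Figure D4:**
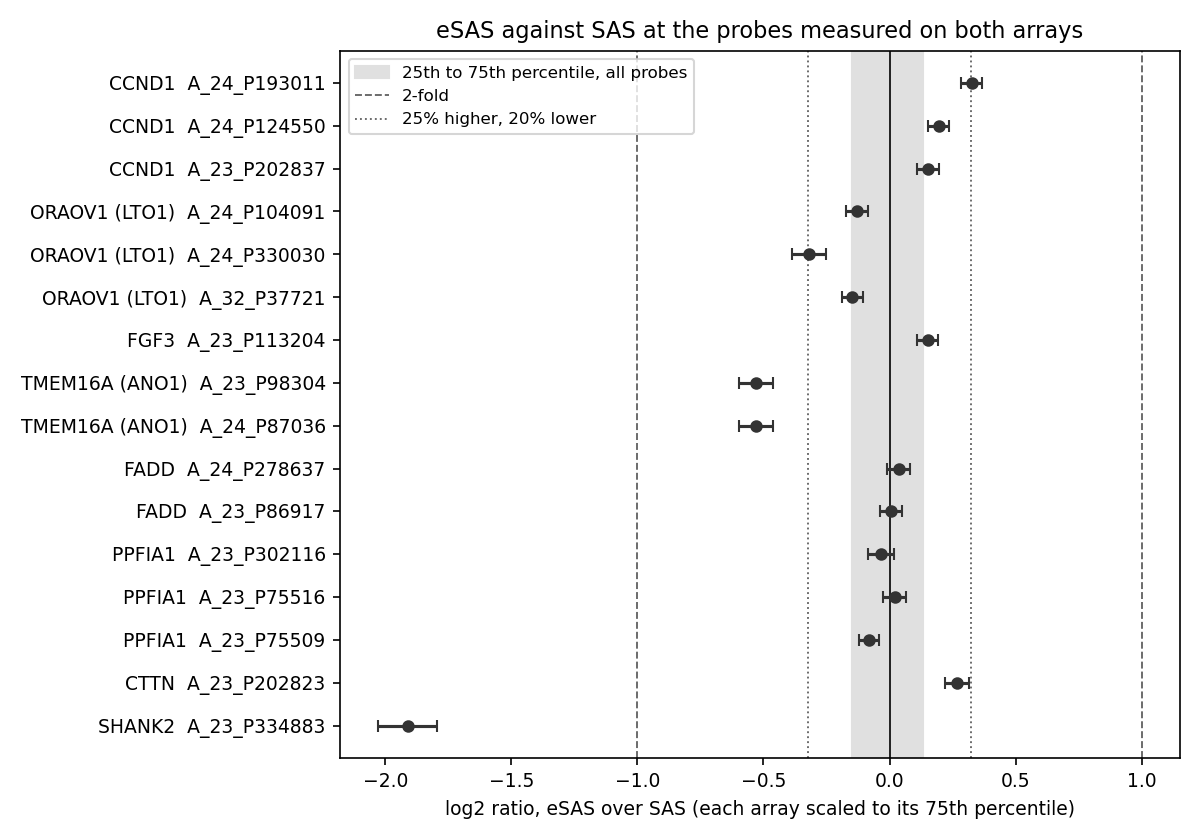
The log2 ratio of eSAS over SAS at the 16 probes measured on both arrays, in order along the chromosome; bars are the SD of replicate spots of like brightness, a technical error, and the grey band runs from the 25th to the 75th percentile of all probes. CCND1, FGF3 and CTTN lie to the right of zero, TMEM16A at -0.53 and SHANK2 at -1.91 to the left, and FADD and PPFIA1 within the band.

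Along the chromosome the 16 values had no common direction. The probes of the 10 genes span 845.63 kb, from the first CCND1 probe to the last SHANK2 probe. Within it CCND1 was higher, ORAOV1 lower, FGF3 higher, TMEM16A lower and CTTN higher. Such values were common: 10.1% to 22.3% of all tested probes were as high as the CCND1 probes. As high as FGF3 were 22.6% and as high as CTTN 12.8%, and 13.8% to 28.9% were as low as the ORAOV1 probes. The median over all 17 probes tested in this span was 0.0060. It was 0.06 over 5 Mb towards the centromere (208 probes measured on both arrays), -0.04 over 5 Mb towards the telomere (84 such probes) and 0.01 over the rest of chromosome 11 (1066 such probes). In the centromere-side window, of 213 probes tested, 22 were at least 25% higher and 16 at least 20% lower, or 10.3% and 7.51%. On the telomere side, of 91 probes tested, 9 and 11 were, or 9.89% and 12.1%. Of all probes 10.1% and 13.7% were, so that neither window exceeded these shares by more than 0.2 percentage points.

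Some single probes beside the region passed 2-fold, and the genes named here were picked for the size of their difference. Towards the centromere 3 of 213 tested probes passed it upward and 1 downward (1.41% and 0.47%). Towards the telomere 2 of 91 did so in each direction (2.20%), while the shares of all probes were 1.83% and 1.97%. Among those well above background on both arrays, none lay as far from zero as SHANK2, inside the region (3.76-fold lower). The others were dim on 1 array, have only lower bounds and are not ranked against it. MYEOV, a gene named for myeloma that lies 347 kb from the first CCND1 probe on the centromere side, had 871 in SAS and 1821 in eSAS, or 2.17-fold higher. It is the nearest neighbour past 2-fold. CPT1A, which carries long-chain fatty acids into mitochondria, was 2.22-fold higher at one probe (75.5 in SAS and 162 in eSAS), which lies in row 499, and had a log2 ratio of -0.61 at its other probe (63.0 and 39.6). These probes are opposite, and no direction is given for the gene. CTSF, the lysosomal protease cathepsin F, was lower (6497 in SAS and 2322 in eSAS, 2.69-fold), as was the folate receptor FOLR2 (102 and 36.9, 2.67-fold). The 8 spots adjacent to these probes had medians of -0.37 and -0.35, of the same sign and larger than at any probe of the 10 genes, and the part of the surrounding spots in these values was not tested.

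Of the other neighbours past 2-fold, 4 were dim on 1 array and have bounds. PDE2A, a cyclic nucleotide phosphodiesterase, was at least 2.58-fold higher in eSAS at one probe and had 0.58 at its other. The transcript CA945082 and the unnamed probe A_24_P624792 were at least 2.62-fold and 2.19-fold higher, and AF229166 was at least 2.69-fold lower. DHCR7, the last enzyme of cholesterol synthesis, had 34333 in SAS and 56807 in eSAS (0.78). Farther along the arm, GAB2, a signalling adaptor, was at least 4.29-fold lower at one probe (67.7 in SAS and 3.27, not well above background, in eSAS) and higher at the other (0.70), again without a common direction. Of 15 listed genes on the centromere side, 18 probes tested had a median of -0.04. For 10 listed genes on the telomere side the median was -0.01 over 13 probes measured on both arrays, of 14 tested. ALDH3B2, an aldehyde dehydrogenase of the first of these lists, had 0.81 at a low signal, 24.6 in SAS.

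**Figure D5:**
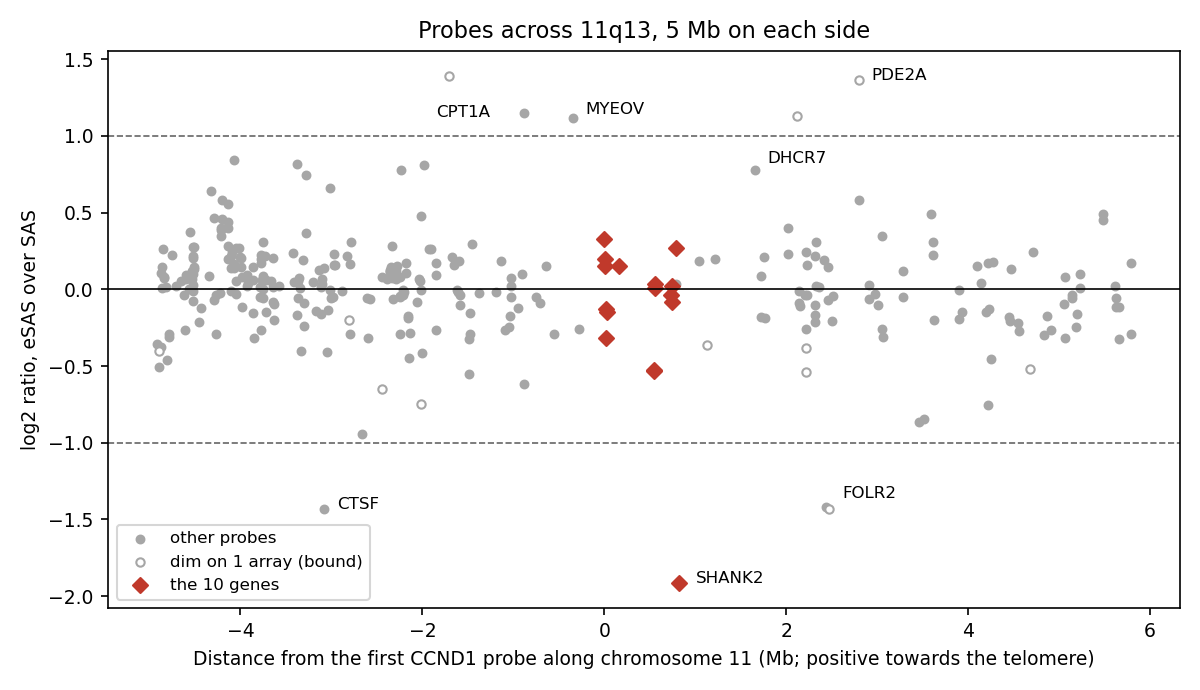
The log2 ratio of eSAS over SAS against distance in Mb from the first CCND1 probe, for the 10 genes (red diamonds) and the other probes within 5 Mb on each side of them (grey; open where dim on 1 array, drawn at the bound). The dashed lines mark 2-fold; the 10 genes lie between -0.53 and 0.33 apart from SHANK2 at -1.91, and MYEOV and CPT1A lie above the upper line on the centromere side.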

How the data were processed

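RNA of SAS and eSAS was hybridised to 2 one-color arrays of 1 slide. The authors deposited the intensity output of Agilent Feature Extraction (10.7.3.1 in the submitters' processing notes), background-corrected but not scaled between arrays, and their series table held the same values to within 0.1 percent. Here the log2 signal minus the 75th percentile of the array over spots that are not controls was taken, without marked spots and averaged per probe. Detection required more than 50 percent of the spots to be marked well above background. A probe detected on 1 array has a lower bound, set against the dim signal or, if higher, the dimmest detected one. Probe positions are those of the array (hg18) and current symbols come from RefSeq.

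With 1 array per group no test was made, and the number of arrays limits the precision. The SD over replicate spots, 0.0725 on the log2 scale over 205 probes with at least 8 spots, is technical.

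The 10 genes, 8 gene lists and 4 marker lists were chosen with earlier results of these data known. Named were all 10 genes, neighbours and list genes with a probe 2-fold apart, and else the gene of a list farthest from zero each way. DHCR7, CDKN1A, CDKN1B, CDKN1C, CDKN2A, CDKN2C, CDKN2D, RB1, CDK4, CDK6, FGFR1, FGFR3, FGFR4, KL, KLB, TNFRSF10A, FAS, FASLG, CFLAR, WIPF1, PPFIA3, SHANK1, SHANK3 and ALDH3B2 were named after their values were seen. Alternatives were other scalings (none, median, quantile), normexp with an offset of 50 on mean or median pixels, uncorrected signals, the series table, other filters and limits for dim probes, marked spots kept, rows 450 to 510 left out, and counting by gene. limma 3.58.1 (R 4.3.3) and Python 3.11.15 were used, and the counting was tested on simulated data.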

Additional observations from a re-analysis of the deposited data

How the results depend on the processing

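The median log2 ratio over the 10 genes kept its value within the spread of replicate spots under every alternative tried. Its likeness to the median of all probes did not hold under normexp. There it was -0.017 and -0.0022 (mean and median pixels), beside 0.53 and 0.53 over all probes. The count at least 2-fold lower was 0 under normexp with mean pixels, 0 with median pixels and 2 with no filter on dim probes. The count at least 25% higher was 0 without scaling, 0 without rows 450 to 510, 0 with genes in place of probes, and 5 under normexp with mean as with median pixels. The count at least 20% lower, otherwise 3, was 4 without scaling, 4 with no filter on dim probes and 2 with genes in place of probes. It was 4 under normexp with mean as with median pixels, from other probes than SHANK2 and TMEM16A. With mean pixels these were ORAOV1 A_24_P104091 (-0.34) and A_32_P37721 (-0.37), FADD A_23_P86917 (-0.59) and PPFIA1 A_23_P75509 (-0.56). Under normexp the window medians were 0.19 and 0.19 on the centromere side (mean and median pixels), 0.57 and 0.57 on the telomere side, 0.48 and 0.49 over the rest of chromosome 11, and 0.53 and 0.53 over all probes. Under the same model the log2 ratio turned to -0.038 and -0.020 at CCND1 A_24_P193011, to 0.38 and 0.37 at TMEM16A A_23_P98304, to 0.44 and 0.46 at A_24_P87036, and to 1.0 and 0.99 at SHANK2 A_23_P334883. Probes short of the 25% and 20% limits also changed sign there: the other CCND1 probes (-0.21 and -0.22 at A_24_P124550, -0.12 and -0.11 at A_23_P202837), ORAOV1 A_24_P330030 (0.73 and 0.70), FGF3 (-0.21 and -0.22), FADD A_23_P86917 (-0.59 and -0.60) and PPFIA1 A_23_P302116 (0.30 and 0.30). With normexp fitted without spots of marked local background, chosen after seeing the data, all 10 summary values stayed within the limits set, as did 15 of the 16 probes, SHANK2 (-1.28) being the exception. The cause was not tested. No paired analysis was possible because each group has 1 array, leaving out a replicate was not possible either, and both arrays share 1 slide, so that a slide block could not be fitted. Array signal near background limits FGF19, FGF4 and the second SHANK2 probe, for which no ratio can be given.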
